A study of Zea mays with 12 samples.

Results

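A group of 7 genes of the maize DNA replication machinery was placed on a replication timing map of root tip cells: orc1, orc2, orc3 and orc4, which encode subunits of the origin recognition complex, MCM6 and MCM7, which encode subunits of the replicative helicase, and PCNA, which encodes the sliding clamp. They were looked up by symbol or synonym in RefSeq's genes for Zm-B73-REFERENCE-NAM-5.0, where all 7 names matched a single gene each, and they are 7 of 33146 protein-coding genes that lay in a classified part of the map. The gene table lists PCNA also as pcna1 and orc4 also as ORC4L, and gives every member a LOC symbol with the common name as a synonym.

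The map came from Repli-seq, a method that labels DNA as it is copied and sequences it by stage of S phase. Seedlings of the inbred line B73, 3 days old and grown at 28 C, took up the thymidine analogue EdU at 25 µM for 20 min and were then moved to 100 µM thymidine. Nuclei of the terminal 1 mm of the root tip were flow sorted on EdU and DAPI fluorescence. The groups were G1, early S phase, mid S phase and late S phase with 3 biological replicates apiece. Labelled DNA was immunoprecipitated from the S-phase groups, while G1 DNA without immunoprecipitation was the reference. All 12 libraries carry the same genotype and EdU pulse, and a 1 mm tip mixes the cell types of the meristem and root cap. The values used here were a single segmentation of the genome in steps of 10 kb, with 20613 segments on 10 chromosomes and no column per library, so neither the read depth nor the replicate error behind a class is known. The class names ES, MS and LS are taken to mean early, mid and late S phase, and ESMS and MSLS to mean both of the neighbouring stages.

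Before S phase, the origin recognition complex binds DNA at replication origins and recruits loading factors that place MCM helicase rings there, a step called licensing. At S phase the helicase rings, with further partners, unwind the DNA, and PCNA encircles it behind the helicase and holds the DNA polymerases on their template. In plants as in animals many of these genes are transcribed in dividing cells under E2F factors, so a root tip meristem, rich in cycling cells, is a tissue in which they are used. The timing class says when the DNA of a gene was copied and not how much RNA or protein the gene made, and neither was measured.

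The genes orc1, orc2, orc3, orc4 and PCNA lay in ES, and the helicase genes MCM6 and MCM7 lay in MS. Other subunits of the origin recognition complex and the helicase are outside the group, and no class is given for them. ES thus held 5 of the 7 genes, beside 54.8% of all classified protein-coding genes, and MS held 2, beside 24.3%. No member was in ESMS, MSLS or LS, which held 11.8%, 4.22% and 4.86% of all classified protein-coding genes. These counts are of so few genes, chosen by name, that they were read as a description and not tested. All 7 genes had the same class at their lower end, midpoint and higher end, so none crossed a boundary of the segmentation, although orc1 spans 21.9 kb and orc4 13.9 kb, percentiles 97.3 and 93.7 of gene length among ES genes.

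**Figure D1:**
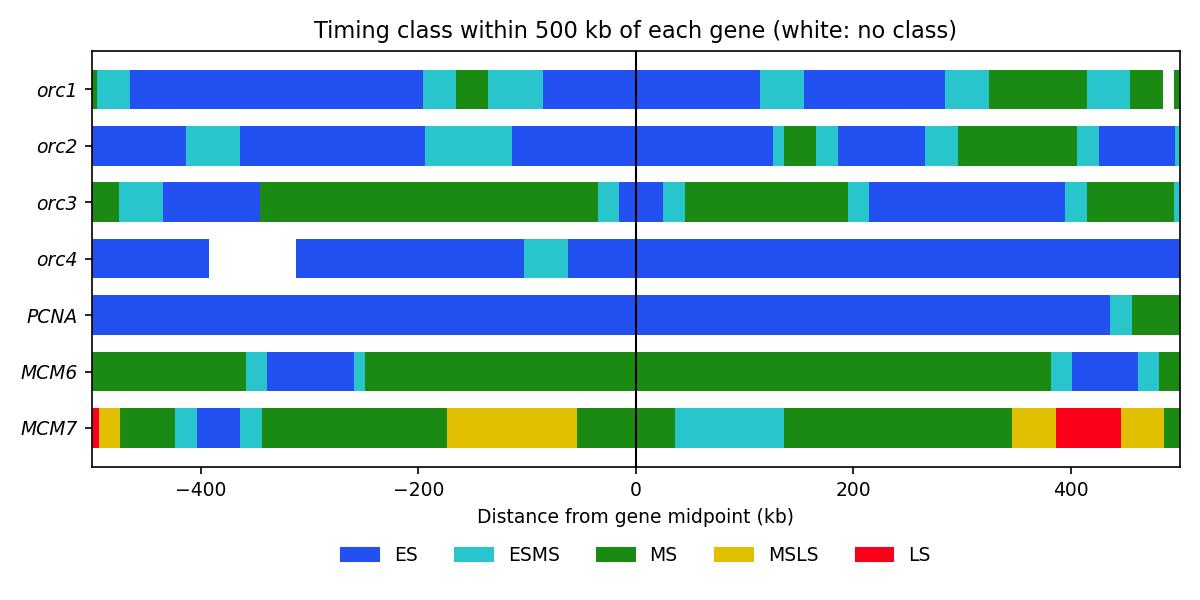
Timing class along the 500 kb on both sides of each gene midpoint (horizontal axis, kb; 1 row per gene; colours are the classes and white is sequence without a class). PCNA and orc4 lie in nearly unbroken ES, orc1 and orc2 in ES segments that alternate with ESMS and MS, orc3 in a 40 kb ES segment between MS segments, and MCM6 and MCM7 in MS.

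The large subunit gene orc1, whose product in animals and plants carries an ATPase domain and a chromatin-reading domain, lay on chromosome 9 at 8.41% of the chromosome's length. Its ES segment ran from 13630001 to 13830000 in the coordinates of the segmentation and was 200 kb long, with 8 protein-coding genes by midpoint. The gene midpoint was 85.7 kb from the lower boundary and 114 kb from the higher one. ESMS segments of 50 kb and 40 kb touched it, followed by 30 kb of MS on the lower side and another 130 kb of ES on the higher side. The locus was therefore a series of ES segments separated by ESMS and MS. Over the 500 kb on both sides, ES made up 60.6% of classified sequence, ESMS 23.2% and MS 16.2%. Of the 10 nearest protein-coding genes, 5 on each side, 9 were in ES and 1 in ESMS.

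A similar setting held orc2, the partner that forms the core of the complex with orc3 in yeast and animals. It lay at 86.0% of chromosome 5 in an ES segment of 240 kb (194510001 to 194750000) with 7 protein-coding genes, 114 kb from its nearer boundary. ESMS touched it on both sides, 80 kb long below and 10 kb long above. ES took 64.6% of its 1 Mb window, ESMS 21.4% and MS 14.0%, and all 10 neighbouring genes were in ES. Among the 21 pairs of members, orc1 and orc2 had the second most alike windows, with the same class at 66.0% of the compared 10 kb steps.

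Of the 5 members in ES, orc3 had the shortest segment and the least ES around it. It lay at 57.7% of chromosome 1, in an ES segment of 40 kb (178100001 to 178140000) that held 4 protein-coding genes. The midpoint was 15.3 kb from the lower boundary and 24.7 kb from the higher one, close to the 10 kb step of the map. ESMS segments of 20 kb touched it on both sides, followed by MS segments of 310 kb below and 150 kb above. In its window MS was the leading class at 56.5%, with ES at 31.0% and ESMS at 12.5%. Its segment length stood at percentile 1.51 among genes in ES, and 2863 of the 3179 ES segments were at least as long. Of its 10 nearest genes 6 were in ES, 3 in ESMS and 1 in MS. Moving all genes 20 kb towards lower coordinates would place orc3 in ESMS, which is the only change of class in any member when genes were moved by 10 kb or 20 kb in either direction.

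The gene orc4, whose product is an ATPase subunit of the complex in animals, lay near the far end of chromosome 3, at 89.7% of its length. Its ES segment was 800 kb long (213430001 to 214230000), with 17 protein-coding genes, and 94 of the 3179 ES segments were at least as long. The gene stood near the lower edge, 62.9 kb from that boundary and 737 kb from the other. Below it a 40 kb ESMS segment separated it from another 210 kb of ES. ES made up 95.7% of the classified window and ESMS 4.35%, and 80.0 kb of the window had no class. With that sequence counted in the denominator the ES share was 88.0%.

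The PCNA gene lay in one of the longest early segments of the genome. At 98.4% of chromosome 5, its ES segment ran from 219810001 to 223270000, and only 4 ES segments including this one were at least as long as its 3.46 Mb. The segment held 140 protein-coding genes, or 40.5 per Mb. PCNA was 3.02 Mb from the lower boundary, where 60 kb without a class followed, and 436 kb from the higher boundary, where 20 kb of ESMS and then 50 kb of MS followed. ES made up 93.6% of its window, MS 4.38% and ESMS 2.00%. All 10 neighbouring genes were in ES, packed within 135 kb.

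The helicase gene MCM6 lay in the interior of a very long mid S segment. It was at 62.0% of chromosome 8, in an MS segment from 112810001 to 113440000 that was 630 kb long and held 8 protein-coding genes. Of the 5942 MS segments 15, this one included, were at least as long, and its length stood at percentile 98.2 among genes in MS. The gene midpoint was 249 kb from the lower boundary and 381 kb from the higher one, and that nearest distance stood at percentile 99.2. Beyond both ends the map rose to ES within a short span, through 10 kb of ESMS to an 80 kb ES segment below and through 20 kb of ESMS to a 60 kb ES segment above. The nearest ES sequence was thus 259 kb below and 401 kb above the gene. MS made up 79.0% of the window, ES 14.0% and ESMS 7.0%, with no MSLS or LS, and the nearest LS segment was 1.07 Mb away. Of its 10 nearest genes 8 were in MS and 2 in ES.

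The surroundings of MCM7 were later and sparser in genes. It lay at 48.8% of chromosome 1 in an MS segment of 90 kb (150520001 to 150610000) of which it was the only protein-coding gene. The midpoint was 54.1 kb from the lower boundary, where 120 kb of MSLS began, and 35.9 kb from the higher one, where 100 kb of ESMS began. The touching segment was thus later below the gene and earlier above it. Farther out the order turned, with ES at 364 kb below and 3116 kb above the gene. MS took 53.4% of its window, MSLS 22.0%, ESMS 14.0%, LS 6.59% and ES 4.0%. It was the only member with MSLS or LS within 500 kb, at 386 kb above and 494 kb below for LS. Among all MS genes 44.8% had LS in the window and 28.4% had all 5 classes, so this mix is common for the class. The window held 8 protein-coding genes with MCM7 itself, percentile 10.1 among MS genes, and its 10 nearest genes were spread over 1475 kb, with 4 in MS, 3 in MSLS, 2 in ESMS and 1 in LS.

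**Figure D2:**
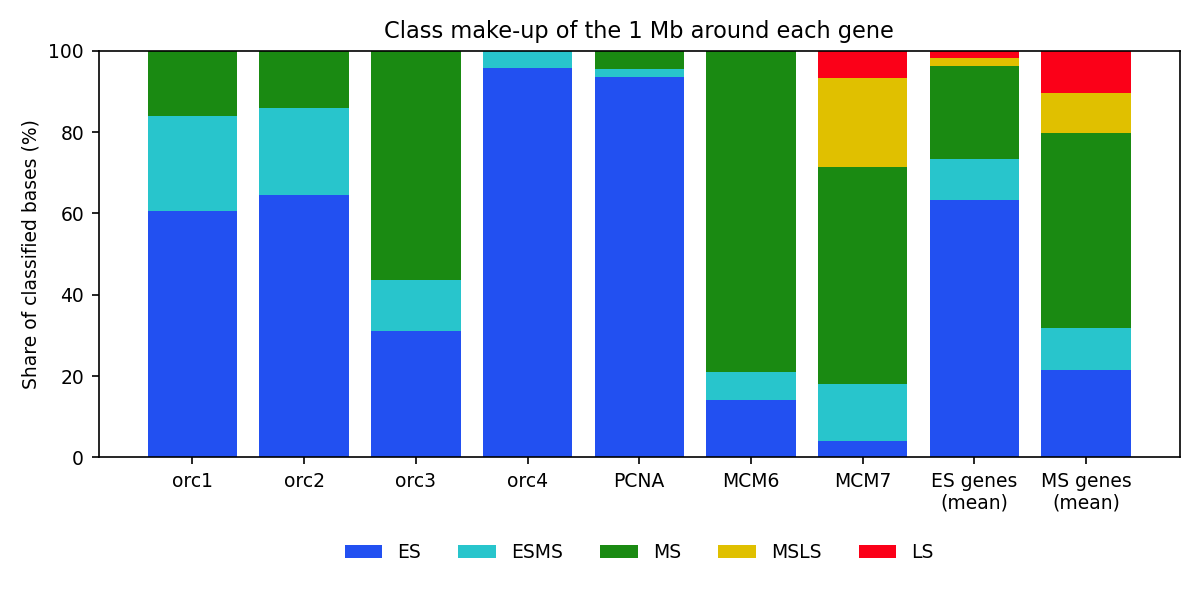
Share of classified bases per class (vertical axis, %) in the 1 Mb centred on each gene, with the mean over all protein-coding genes in ES and in MS as the last bars. ES ranges from 4.0% at MCM7 to 95.7% at orc4, and the means are 63.3% for ES genes and 21.6% for MS genes.

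Ordered by the ES share of their windows, the members ran from orc4 and PCNA through orc2, orc1 and orc3 to MCM6 and MCM7. The groups in ES and in MS did not overlap on this measure, with 31.0% as the lowest value in ES and 14.0% as the highest in MS. A window centred on an ES gene holds ES by construction, so the separation follows in part from the class of the gene. Over all genes the lower and upper quartiles were 42% and 87.4% in ES and 5% and 33.3% in MS. The 31.0% of orc3 thus fell between the quartiles of MS genes. Among genes of their own class the members were spread over the range. The ES share stood at percentile 85.3 for orc4, 82.5 for PCNA, 49.0 for orc2, 44.7 for orc1 and 15.2 for orc3 among ES genes, and at 45.0 for MCM6 and 21.7 for MCM7 among MS genes. Neighbours in this order cannot be separated by an error, since the map has no replicate values. The order also changed with the measure. PCNA stood above orc4 with unclassified sequence counted (93.6% beside 88.0%), within 250 kb (100% beside 92%) and within 1 Mb (95.5% beside 92.2%). Within 1 Mb orc1 (64.4%) stood above orc2 (60%).

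Segment lengths spanned nearly the whole range found for genes in ES. From 40 kb at orc3 through 200 kb at orc1, 240 kb at orc2 and 800 kb at orc4 to 3.46 Mb at PCNA, they had a median of 240 kb, beside 350 kb for all ES genes. Their percentiles were 1.51, 33.3, 38.1, 73.4 and 96.6. The pair in MS also differed in length, at percentile 20.7 for MCM7 and 98.2 for MCM6, where the median of MS genes was 170 kb. Subunits of the same complex therefore lay in segments of very different size.

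**Figure D3:**
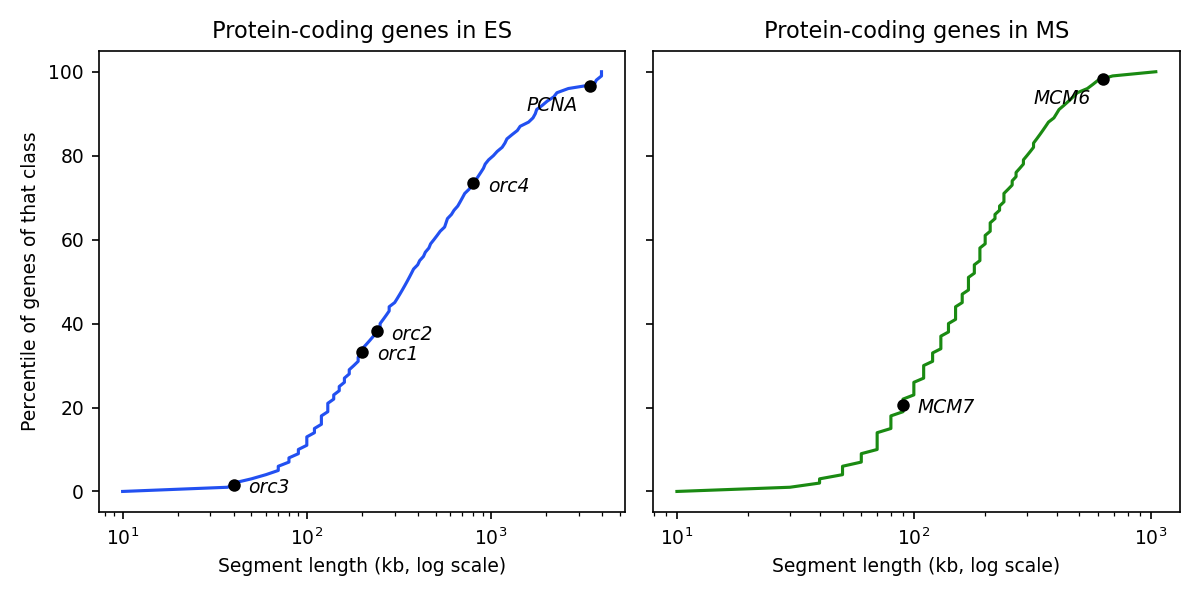
Length of the segment that holds a gene (horizontal axis, kb, log scale) against the percentile among protein-coding genes of the same class (vertical axis), for ES on the left and MS on the right. Points are the members, from orc3 at 40 kb to PCNA at 3460 kb in ES, and MCM7 at 90 kb and MCM6 at 630 kb in MS.

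PCNA had the most genes around it and MCM7 the fewest. PCNA had 37 protein-coding genes in its window, orc2 27, orc1 24, orc4 20, orc3 17, MCM6 14 and MCM7 8, each count with the gene itself. The medians were 26 for ES genes and 15 for MS genes, so orc4, in a long early segment, had fewer genes around it than the median ES gene, at percentile 25.6. Distance to the nearest LS segment was 24.5 Mb for orc4, 17.5 Mb for PCNA, 6.51 Mb for orc1, 3.22 Mb for orc2 and 1.51 Mb for orc3, with a median of 5.07 Mb over all ES genes. It was 1.07 Mb for MCM6 and 0.386 Mb for MCM7, with a median of 0.681 Mb over all MS genes.

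Position along the chromosome moved with class. The 4 members within 20% of the chromosome's length from an end, orc1, orc2, orc4 and PCNA, were all in ES, where 70.5% of classified protein-coding genes were in that class. Of the 3 in the middle 60%, orc3 was in ES and MCM6 and MCM7 were in MS, beside 33.9% of genes in ES there. The part that position had in the class of these genes was not tested. In the 5% bin that holds orc3, ES made up 12% ± 7.83 of sequence (mean and SD over the 10 chromosomes, which are parts of a single map and not replicates), beside 31.0% in its window. For orc1 the bin had 37.5% ± 19.2 beside 60.6%, and for PCNA 77.7% ± 11.6 beside 93.6%. The bin of orc2 and orc4 had 55.1% ± 20.0, beside 64.6% and 95.7% in their windows. For MCM6 and MCM7 the bins had 15.5% ± 7.90 and 4.42% ± 2.02, close to the 14.0% and 4.0% of their windows. Bins cover all bases, whereas a window centred on an ES gene holds ES by construction, so they are unlike measures. Over all ES genes the mean ES share of the window was 63.3%.

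**Figure D4:**
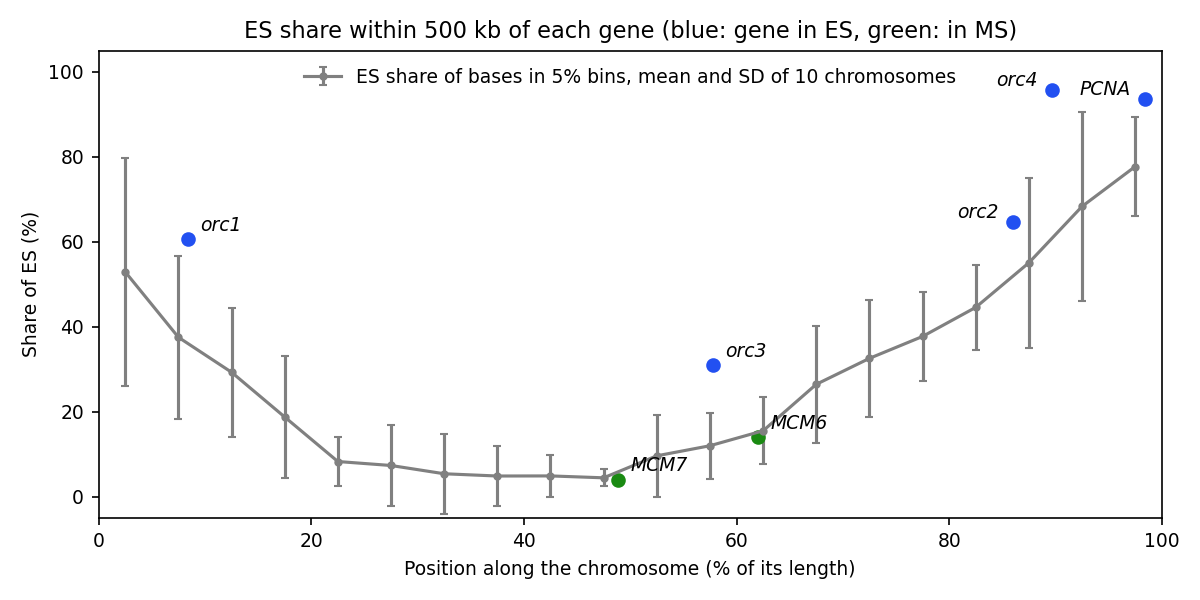
ES share (vertical axis, %) against position along the chromosome (horizontal axis, % of its length). The grey line is the share of bases in 5% bins, with the mean and SD of the 10 chromosomes, and points are the 1 Mb windows of the members, blue for genes in ES and green for genes in MS. The windows of the 5 ES genes lie above the mean of their bins and those of MCM6 and MCM7 slightly below. A window centred on an ES gene holds ES by construction, while a bin covers all bases.

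The whole run of classes was compared between windows in 10 kb steps, with the mean difference in class as the measure, where the 5 classes are ranked from ES to LS and neighbouring classes are 1 apart. Within the group, orc4 and PCNA were the most alike of the 21 pairs, 0.17 classes apart with the same class at 88.2% of steps, and orc4 and MCM7 the least, 2.19 classes apart. The helicase genes were 0.90 classes apart and agreed at 44.6% of steps. The nearest run to orc3 within the group was that of MCM6, 1.01 classes apart, although their classes differ. Among the 186 to 208 other protein-coding genes with a common symbol in the gene table, the closest run was that of lox5, a lipoxygenase gene on chromosome 5, for orc1 (0.25 classes apart) and that of sfp4 on chromosome 1 for orc2 (0.26). It was that of AP-17, an ESMS gene on chromosome 2, for orc3 (0.39). For MCM6 it was opr7 on chromosome 1, a gene of the oxophytodienoate reductase family that makes jasmonate (0.33), and for MCM7 it was WHY1 on chromosome 6, named for the Whirly DNA-binding proteins (0.59). For orc4 and for PCNA 10 genes tied, at 0.04 and 0.12 classes apart, the first by position having a window wholly in ES and only a number as its symbol. MCM7 thus had the least close counterpart. The medians over the compared genes were 1.08 to 1.39 classes.

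Other genes of replication and the cell cycle, matched by name alone because the gene table gives no products, were mostly in ES. None of them was a further subunit gene of the origin recognition complex or of the MCM ring, and none was a DNA polymerase gene. The counts therefore cover only part of the replication machinery. In all, 27 of 33 other genes were in ES (81.8%, beside 54.8% of all classified protein-coding genes), 5 in MS and 1 in MSLS. In the outer parts 15 of 17 were in ES and in the middle 12 of 16, beside 70.5% and 33.9% of genes there. The lists were written with earlier results of these data known and were not tested.

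At the fork, the second clamp gene pcna2 was in ES like PCNA, on chromosome 4 in a segment of 930 kb (178020001 to 178950000), with ES at 86.0% of its window. Unlike PCNA it lay in the middle part of its chromosome, at 71.2% of the length. FEN1, whose product trims the flaps of Okazaki fragments, lay in a 1.74 Mb ES segment of chromosome 6 (172000001 to 173740000), and ES filled 100% of its window. SLD5, a subunit of the GINS complex that joins the MCM ring in the active helicase, lay in a 710 kb ES segment of chromosome 2 with ES at 87.6% of its window. The helicase partner was thus in ES while both named ring subunits were in MS. Their positions also differed. SLD5 lay at 88.9% of its chromosome, in the outer part, where 70.5% of classified protein-coding genes were in ES. MCM6 and MCM7 lay in the middle part, where 33.9% were. The part that position had in this difference was not tested.

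Of 12 genes for nucleotide supply and chromatin, 11 were in ES (91.7%, beside 54.8% of all classified protein-coding genes). They include all 6 core histone genes found by name and Top1, which encodes a topoisomerase. Also in ES were 4 of 5 ribonucleotide reductase genes, whose products make deoxynucleotides, the first by position being RNRS3 on chromosome 2 (segment of 270 kb). Of these, RNRS1 was in a 50 kb ES segment with its midpoint 1.97 kb from a boundary, less than the 10 kb step of the map. The effect of moving genes was looked at for the members only. The large subunit gene RNRL2 was in MS, in a 100 kb segment of chromosome 6, 156 kb from ES and 104 kb from LS. Its window held 19% LS, beside 6.59% at MCM7, while the other large subunit gene RNRL1 was in a 270 kb ES segment. LS in the window was not limited to genes outside ES, with 24.0% at the histone gene histone2b1 and 12% at RNRS1. The other ES genes of this list had no LS in the window.

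Among 18 regulators, 13 were in ES (72.2%, beside 54.8% of all classified protein-coding genes). In the outer parts 7 of 9 were in ES and in the middle 6 of 9, beside 70.5% and 33.9% of genes there. The first by position in ES was the cyclin-dependent kinase gene cdc2, in a 2.28 Mb segment of chromosome 1. Of the retinoblastoma-related genes, whose products restrain E2F, RBR1 and rbr3 were in ES and RBR2 was in MS, in a 370 kb segment of chromosome 4. Genes named DP1 and DP2, a name used for the partners of E2F, were in MS and in ES. Of 12 cyclin genes 9 were in ES, cyc2 and cyc3 were in MS, and cyclin11 was in MSLS, in an 80 kb segment of chromosome 2, with the gene midpoint 43.9 kb from LS. It had the latest class of the 40 genes in the lists, members included. None of the 40 was in LS, which held 4.86% of all classified protein-coding genes.

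**Figure D5:**
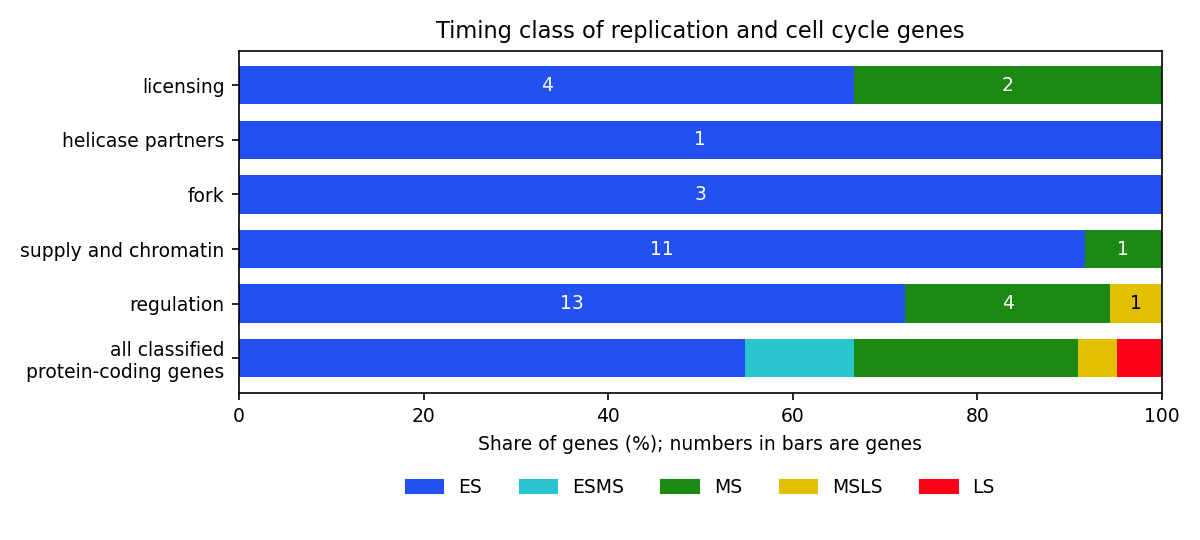
Share of genes per timing class (horizontal axis, %) in 5 lists of replication and cell cycle genes, members included, with the number of genes in each bar, and over all classified protein-coding genes in the last row. ES holds 4 of 6 licensing genes, the single helicase partner, 3 of 3 fork genes, 11 of 12 supply and chromatin genes and 13 of 18 regulators. All 6 licensing genes are members, and the lists hold only genes found by name.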

How the data were processed

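The authors deposited 1 segmentation, and its values are coordinates and a timing class in steps of 10 kb, per the file headers. Tools listed in the submitters' processing notes are SAMtools 1.9, Bowtie2 2.5.1 and Trimmomatic 0.39. For the genome build, the segmentation method and the pooling of replicates, nothing is given in the sources used here. Groups were taken from the labels.

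Genes were matched by symbol or synonym, case ignored, and took the class at their midpoint. Gene counts per 10 kb correlated best with ES within 10 kb of no offset on 10 of 10 chromosomes, out of offsets up to 200 kb, so both coordinate systems were used together, and no gene coordinate is printed. The last segment was taken as the end of a chromosome. Window shares are of classified bases within 500 kb on both sides. A percentile counts genes with lower values plus ties weighted 0.5, over classified protein-coding genes. Likeness was computed for genes at least 1 Mb away with a class at 90% of steps or more.

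The members and lists were chosen with earlier results of these data known. Named were all members, the first gene of each class in a list, all MSLS genes and the nearest run of classes for each member. Named after their values were seen were the remaining genes outside ES, FEN1, Top1, RNRL1, RNRS1, histone2b1, RBR1, rbr3 and DP2. Left out of the lists by their other synonyms or an unclear name were 10 genes, 7 of them kinesins named krp. Relatives by protein and promoter motifs were planned and not analysed here, as they need sequences. No statistical test was run. The measures were checked on simulated maps. Python 3.11.15, numpy 2.4.6, pandas 2.3.3 and matplotlib 3.10.9 were used.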

Additional observations from a re-analysis of the deposited data

How the results depend on the processing

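All 7 members kept their class with the lower or the higher gene coordinate. They also kept it with genes moved up by 10 or 20 kb or down by 10 kb. With genes moved down by 20 kb 6 did, and 4 instead of 5 were in ES. Giving segments under 30 kb to a neighbour could not change a member's class, as the shortest member segment was 40 kb. Joining mixed classes could not change it either, as no member was in ESMS or MSLS. The background share of ES was 51.0% over genes of all types, 44.3% over named genes only, 54.8% at either gene end and 66.6% with mixed classes joined. The median segment length of the members, 240 kb, was 250 kb with short segments given away and 630 kb with mixed classes joined, where orc2 moved from 240 to 960 kb. The median distance to a boundary, 85.7 kb, was 74.7 kb from the nearest gene end and 136 kb with mixed classes joined. The median ES share of the windows, 60.6%, was 70% within 250 kb, 60% within 1 Mb, 60% with unclassified sequence counted and 83.8% with mixed classes joined; within 250 kb it was 15.1% for orc3 and 0 for MCM6 and MCM7. By chromosome part, chosen after the data were seen, the share of members in ES was 100% in the outer and 33.3% in the middle part. No paired analysis was possible because the segmentation has no value per library, and for the same reason no replicate could be left out and depth limits cannot be stated.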
